A study of Gallus gallus with 12 samples.

Results

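Naturally mated hens were compared with hens that received seminal fluid (SF) freed of sperm, at the utero-vaginal junction (UVJ) of the oviduct, across every feature of a chicken expression array. The members were chosen by the treatment given in the labels alone: 4 mated hens and 4 SF-infused hens, 8 of the 12 samples of the series. The remaining 4 samples, control hens that were neither mated nor inseminated, are used to share the estimate of spread and to place the levels. All hens were White Leghorn, and the UVJ was taken 24 h after treatment, at the same time as that of the controls. According to the methods, each mated hen was paired with 1 male, and each SF-infused hen received by plastic pipette into the cloaca an aliquot of the supernatant of centrifuged semen, pooled per male from the same males. The methods state that sperm in the storage tubules were looked for by histology before the arrays were run. Mated hens therefore differed from SF-infused hens in sperm, but also in copulation, contact with a male, handling and the volume deposited, and these cannot be told apart.

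The UVJ lies between the shell gland and the vagina, and its mucosal folds hold the sperm storage tubules, blind glands in which sperm stay fertile for weeks. Semen brings foreign cells and foreign proteins to this mucosa, which also carries ciliated and secretory epithelium, resident lymphocytes and macrophages. A comparison of mating with SF alone asks which transcripts differ when sperm and copulation are added to the fluid.

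Each array held the RNA of 1 hen, and the values are log2 intensities after robust multichip averaging (RMA) by the authors. Precision is limited by the number of arrays, 4 per group. Median intensity was 1077 to 1102 over the 12 arrays, a feature of random sequences gave a log2 level of 3.81 to 3.95, and 94.5% to 96.0% of features lay above it. All arrays lay on 1 slide, on which each group took neighbouring places, so that place and treatment cannot be told apart. Mated 3 and mated 4 stood apart: 12.2% and 9.97% of features lay more than 1 on the log2 scale from the mean of the other mated arrays, against 3.44% to 7.60% for the SF arrays. In the dissected tissue, fewer cells of a type and less RNA per cell cannot be told apart. The epithelial markers EPCAM and KRT8, the cilia regulator FOXJ1 and the smooth muscle genes MYH11 and ACTA2 all had mean levels of 13.92 to 14.49 in mated and in SF-infused hens.

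Mated and SF-infused hens were not told apart by any feature after adjustment. None of the 37374 features passed an adjusted p of 0.05 (limma, Benjamini-Hochberg over all features), and the smallest adjusted p was 0.641. At an unadjusted p under 0.05, 1756 features passed (4.7%), 762 higher (2.04%) and 994 lower (2.66%) in mated hens, where such a threshold passes 5.0% if no feature differs. The 4 mated and the 4 SF arrays did not overlap at 1135 features (3.04%), 575 higher (1.54%) and 560 lower (1.5%). Of 10734 characterised genes, each represented by its brightest feature, 330 passed the unadjusted threshold (3.07%), with 166 higher (1.55%) and 164 lower (1.53%) in mated hens. The groups did not overlap at 234 of the 10734 genes (2.18%), and 148 both passed and did not overlap (1.38%). The median difference, mated minus SF on the log2 scale, was 0.006 over these genes, and 51.4% lay above 0. A total of 32 genes passed the threshold with a difference beyond 1 (0.298%). Below, a gene is called when its unadjusted p was under 0.05, and no called gene passed the adjusted threshold. The p-values given beside single genes are those adjusted over all features unless marked unadjusted. Each gene described was called unless the text says otherwise.

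The features that passed were mostly dim ones. Of the 9344 dimmest features 11.4% passed, and of the 9344 brightest 1.11%, with 4.4% and 1.91% in the classes of 9343 between them. Features drawn from expressed sequence tags, which carry no gene name, passed in 5.39% of cases, with 297 higher and 532 lower in mated hens. Ensembl transcripts passed in 4.44% and RefSeq transcripts in 3.3%. The share of passing features that lay higher in mated hens was 43.4%, and it was 58.7% (1094 higher, 771 lower) when the features were quantile-normalised again.

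**Figure D1:**
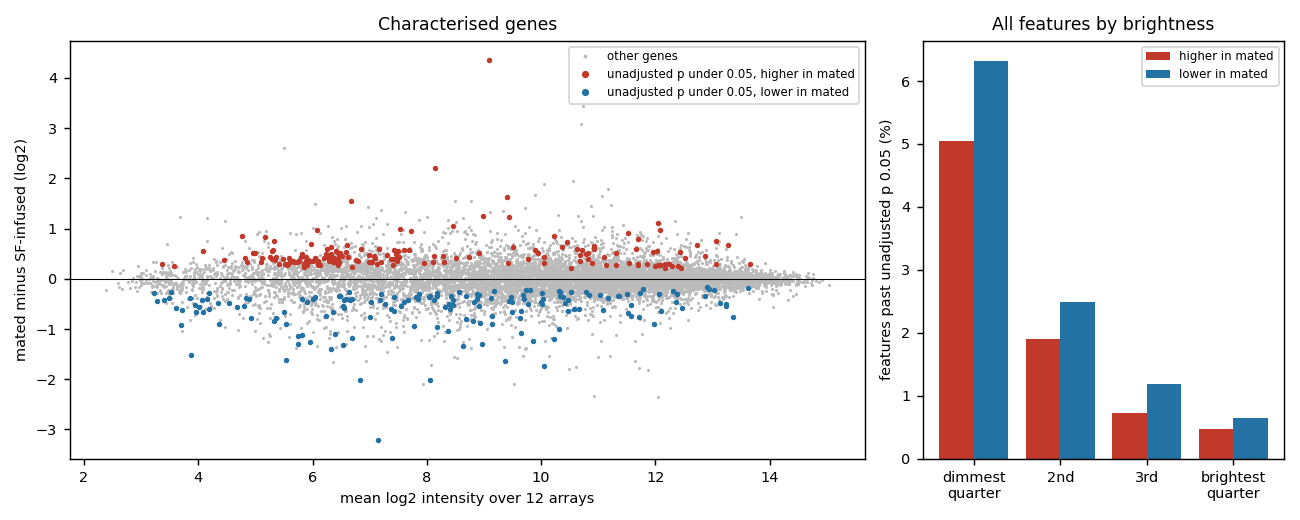
Left, the difference between mated and SF-infused hens (log2) of each of the 10734 characterised genes against its mean log2 intensity over the 12 arrays; genes with an unadjusted p under 0.05 are coloured by direction, 166 higher and 164 lower in mated. Right, the percentage of all features past that threshold in each of 4 classes of brightness, 11.4% in the dimmest and 1.11% in the brightest when both directions are added.

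The genes described first were picked among called genes whose mated and SF arrays did not overlap, 12 by size in each direction and 6 by p, so that the lack of overlap in them was fixed by the choice and supports nothing. Called genes with overlapping arrays and larger differences are among those described further on. RHOH, a small GTPase of the blood cell lineage, lay at 6.13, 6.47, 6.37 and 6.95 in mated hens, against 5.80, 5.70, 5.42 and 5.08 in SF-infused hens. The difference was 0.98 ± 0.19 (log2 difference ± SE here and below, 1.97-fold, adjusted p = 0.641). The 4 control hens lay at 6.19 to 6.33, within the mated range, so that it was the SF-infused hens that stood apart. PAX5, the transcription factor that fixes B lymphocyte identity, lay at 5.26, 5.50, 5.59 and 6.47 in mated hens, against 5.19, 5.10, 4.79 and 4.74 in SF-infused hens. The groups were next to each other at 5.26 and 5.19, and mated 4 was the highest, with a difference of 0.75 ± 0.24 (adjusted p = 0.868).

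CD72, a B cell surface receptor, gave 7.72, 7.65, 9.23 and 8.55 in mated hens, against 7.20, 7.51, 7.33 and 7.30 in SF-infused hens. The high levels came from mated 3 and mated 4, while mated 1 and mated 2 lay just above the highest SF-infused hen, and the difference was 0.95 ± 0.29 (adjusted p = 0.855). EDG6, the older name of a sphingosine phosphate receptor of lymphocytes, gave 7.43, 7.79, 7.72 and 9.37 in mated hens, against 6.83, 7.13, 6.94 and 7.39 in SF-infused hens. Mated 4 was by far the highest, and the difference was 1.00 ± 0.35 (adjusted p = 0.925). RHOH, PAX5, CD72 and EDG6 stayed past the threshold whichever array was left out. On mated 4 the T lymphocyte, B lymphocyte and macrophage lists described below also had their highest levels of all arrays (1.16, 0.65 and 1.00), and the part of these cells in the 4 differences was not tested.

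NUDT1, which hydrolyses oxidised purine nucleotides before they enter DNA, had the smallest unadjusted p of the genes described here (0.000169, adjusted p = 0.641, limma). Its levels were 11.39, 11.48, 11.29 and 11.21 in mated hens, against 10.92, 10.52, 10.73 and 10.80 in SF-infused hens and 10.73, 10.79, 10.55 and 10.69 in control hens. The controls lay with the SF-infused hens, and mated hens differed from SF-infused hens by 0.60 ± 0.11 (1.51-fold). IGF2BP1, an mRNA-binding protein mainly of embryonic tissue, gave 4.71, 6.27, 4.77 and 5.60 in mated hens, against 4.44, 4.50, 4.64 and 4.32 in SF-infused hens. Mated 2 and mated 4 carried the difference of 0.86 ± 0.29 (adjusted p = 0.868), and the controls, at 4.39 to 4.57, lay with the SF-infused hens. ACTL9, an actin-like protein best known from the testis, gave 5.99, 6.12, 6.30 and 6.17 in mated hens, against 5.68, 5.78, 5.71 and 5.68 in SF-infused hens. The difference was small, 0.44 ± 0.08 (adjusted p = 0.641), but exceeded the spread within either group.

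FOXL1 and PROX2, both transcription factors, differed by 0.67 ± 0.17 (adjusted p = 0.786) and 0.63 ± 0.17 (adjusted p = 0.811). Their mated arrays lay at 6.43 to 7.43 and 6.29 to 7.18, against 6.26 to 6.41 and 5.89 to 6.15 in SF-infused hens. LONRF3, a RING-finger protein, was bright, at 11.66 to 12.45 in mated hens, against 10.95 to 11.45 in SF-infused hens, with controls at 11.54 to 12.40 and a difference of 0.79 ± 0.22 (adjusted p = 0.811). For 3 others 1 SF array lay well below the rest. SLC28A3, a concentrating nucleoside transporter, was 0.91 ± 0.38 higher (adjusted p = 0.998), at 11.70 to 12.02 in mated hens. It gave 9.80 on SF 2 and 10.82 on SF 3, but 11.49 and 11.61 on SF 1 and SF 4. TNIK, a kinase of Wnt signalling, was 0.76 ± 0.31 higher (adjusted p = 0.993), with 11.46 on SF 4 against at least 12.82 on the other SF arrays. SIK1, a kinase induced by cyclic AMP, was 0.66 ± 0.25 higher (adjusted p = 0.964), with 9.79 on SF 4 against 10.70 to 10.72 on the others. Each of these 3 genes lost the threshold when 1 or more single arrays were left out, SIK1 without SF 4 or mated 4. SLC28A3 lost it without SF 2, SF 3, mated 1, mated 2 or mated 4. TNIK lost it without mated 3 or mated 4, but not without SF 4.

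**Figure D2:**
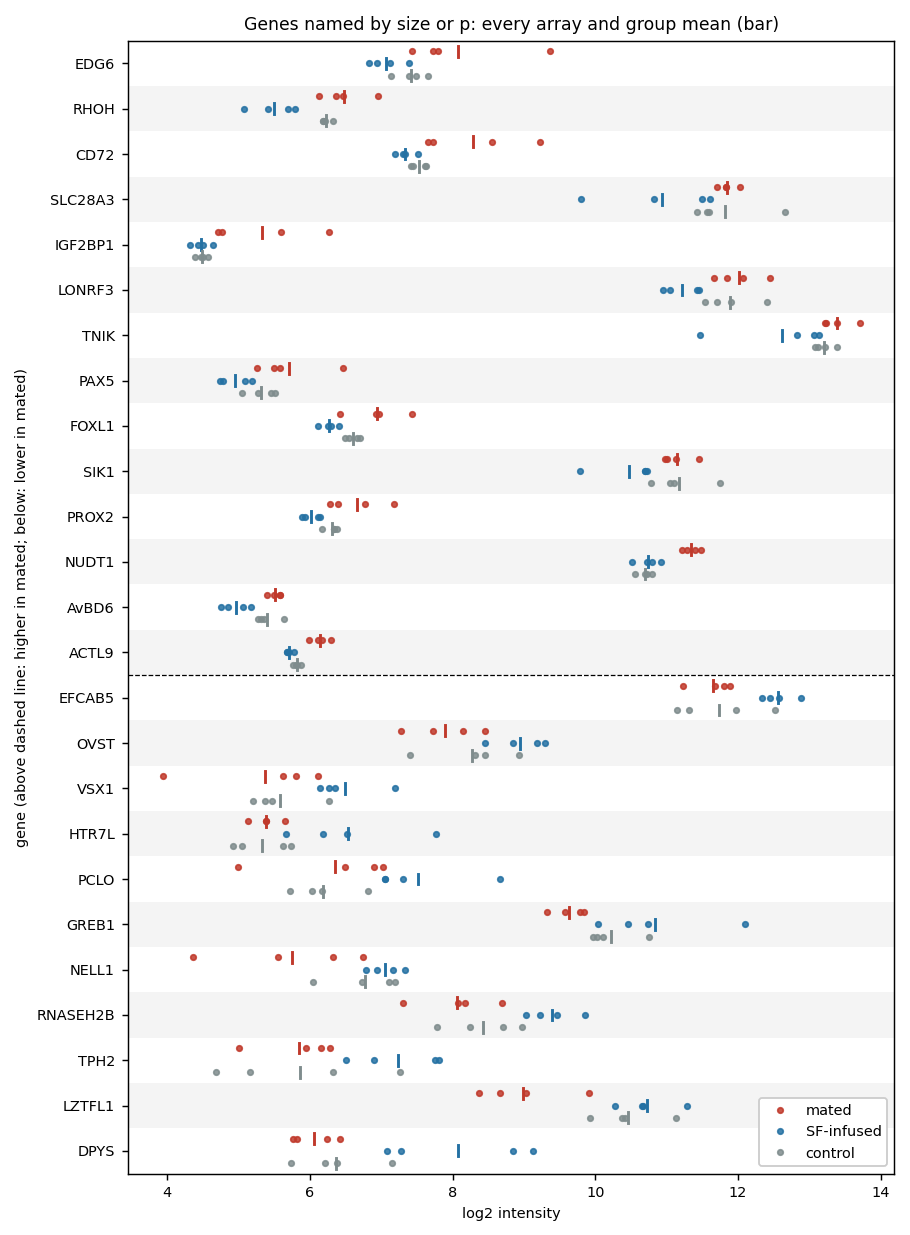
Log2 intensity of 25 genes on every array (points) with the group mean (bar), mated above SF-infused above control within each gene. Genes above the dashed line lay higher in mated hens and those below it lower; the control points of DPYS lie near the mated points, and those of LZTFL1 near the SF points.

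Of the genes picked in the other direction, 11 are described. DPYS, dihydropyrimidinase of pyrimidine breakdown, lay at 6.24, 5.76, 6.42 and 5.82 in mated hens, against 8.85, 9.12, 7.28 and 7.08 in SF-infused hens. SF 1 and SF 2 were the highest, with a difference of -2.02 ± 0.47 (4.05-fold lower, adjusted p = 0.733), and the controls, at 5.74 to 7.15, lay mostly with the mated hens. LZTFL1, which regulates the entry of membrane proteins into cilia through the BBSome, lay at 8.37, 8.66, 9.91 and 9.03 in mated hens, against 11.28, 10.27, 10.67 and 10.66 in SF-infused hens. In this case the controls, at 11.13, 10.41, 9.92 and 10.38, lay nearer the SF-infused hens, and the difference was -1.73 ± 0.35 (3.31-fold lower, adjusted p = 0.641). RNASEH2B, a subunit of the enzyme that removes ribonucleotides from DNA, gave 8.69, 7.31, 8.18 and 8.07 in mated hens, against 9.03, 9.85, 9.22 and 9.46 in SF-infused hens. Mated 2 was the lowest and SF 2 the highest, and the difference was -1.33 ± 0.32 (adjusted p = 0.739).

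TPH2, the serotonin-forming hydroxylase of neurons, gave 6.28, 5.95, 5.01 and 6.16 in mated hens, against 6.51, 7.75, 6.90 and 7.81 in SF-infused hens. Mated 1 and SF 1 lay close together, the difference was -1.39 ± 0.54 (adjusted p = 0.968), and it lost the threshold without SF 2, SF 4 or mated 3. HTR7L (HTR7 on the array), a serotonin receptor gene, differed by -1.14 ± 0.38 (adjusted p = 0.868), with 7.77 on SF 2 and 5.67 on SF 1, against 5.13 to 5.66 in mated hens. A second receptor feature, HTR7, differed by 0.11 ± 0.21 and was not called.

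PCLO (ACZ on the array), a scaffold of synaptic terminals, gave 6.90, 6.49, 5.0 and 7.02 in mated hens, against 7.05, 8.67, 7.31 and 7.06 in SF-infused hens. Mated 4 and SF 1 lay next to each other, the difference was -1.17 ± 0.48 (adjusted p = 0.998), and its 2 other features differed by -0.79 and -0.87, neither called. VSX1, a homeobox factor of the retina, differed by -1.12 ± 0.44 (adjusted p = 0.973). On PCLO and VSX1 mated 3 was the lowest of all 8 arrays, and both lost the threshold without mated 3 or SF 2, PCLO also without mated 2. The neuropeptide list had 3 of 67 genes called higher and 1 called lower in mated hens (median 0.06), where 1.55% and 1.53% of all characterised genes were. TPH2 was its only member called lower. PENK, described below with the eggshell gland genes, was among its members called higher.

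NELL1, a secreted protein of bone and cartilage, gave 6.75, 5.55, 4.37 and 6.33 in mated hens, against 7.34, 7.16, 6.79 and 6.94 in SF-infused hens. The mated hens were spread widely and the SF-infused hens little (SD 1.04 and 0.24), with a difference of -1.31 ± 0.45 (adjusted p = 0.889). GREB1, known from human cells as an oestrogen-induced gene, gave 9.78, 9.32, 9.84 and 9.58 in mated hens, against 10.74, 12.09, 10.46 and 10.04 in SF-infused hens. SF 2 was far above the others, and the difference was -1.20 ± 0.37 (adjusted p = 0.858). EFCAB5, an EF-hand protein, was bright and tight, at 11.23 to 11.89 in mated hens, against 12.33 to 12.88 in SF-infused hens (-0.91 ± 0.28, adjusted p = 0.855).

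In all, 25 genes were named for their size or p, 14 higher and 11 lower in mated hens. Of these, 19 stayed past the threshold whichever array was left out. RHOH, IGF2BP1, PAX5, FOXL1, PROX2, ACTL9, AvBD6, DPYS, TPH2, NELL1, PCLO, HTR7L and VSX1 were among the 9344 dimmest features, of which 11.4% passed. The control mean lay nearer the SF mean for 8 of the 14 higher genes and nearer the mated mean for 6. For the 11 lower genes it lay nearer the mated mean in 9, the exceptions being LZTFL1 and NELL1. Over all called genes the control lay nearer the mated mean for 121 of 164 lower genes (73.8%) and 97 of 166 higher genes (58.4%), beside 68.3% and 66.4% of all genes with a difference in the same direction. The lower called genes had a median of -0.11 for mated minus control and 0.35 for SF minus control, and the higher called genes 0.16 and -0.23. These differences share the control arrays, and the choice of genes by mated minus SF favours opposite signs.

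The gene lists gave 38 called genes among 1119 distinct members (3.40%), close to the 3.07% over all characterised genes. With all arrays 1.55% of all characterised genes were called higher and 1.53% lower, the shares to set beside the counts below. On the level of a list, taken as the mean of its members after each was centred on its mean over the 12 arrays, the mated and SF arrays overlapped for all 34 lists. Members of a list vary together from hen to hen, so that a count of members above 0 is not a count of independent events.

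The interferon response list, genes that type I interferon switches on against viruses, was lower in 3 mated hens and highest of all in the fourth. Its level was -0.31, -0.34, -0.98 and 1.40 on mated 1 to 4, against 0.27, 0.32, 0.63 and 0.39 in SF-infused hens and -0.64, -0.56, -0.58 and 0.42 in control hens. Mated 1 to 3 lay below all SF arrays and mated 4 above them. With all arrays 24 of 28 genes lay below 0, the median difference was -0.35, and 0 were called in either direction. Without mated 4, 23 of 28 were called lower and 0 higher, where 3.2% and 2.28% of all characterised genes were, with a median of -0.79, and the smallest adjusted p in the list was 0.513. Without mated 3, 0 were called lower and 1 higher, IFNAR1, where 1.47% and 1.3% of all genes were, and the median was -0.15.

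IFIT5, an RNA-binding antiviral protein, gave 10.71, 10.02, 9.13 and 13.77 in mated hens, against 12.12, 12.26, 12.73 and 12.65 in SF-infused hens. The SF-infused hens were alike, whereas mated 4 was the highest of all hens and mated 3 the lowest of the mated hens, and the difference of -1.54 ± 0.89 was not called (adjusted p = 0.998). Leaving out mated 4 gave -2.49 (adjusted p = 0.59). IFI6 (ISG12-2 on the array) gave 11.17, 10.71, 9.46 and 13.80 in mated hens, against 12.28, 12.34, 12.75 and 12.74 in SF-infused hens, the same pattern, with -1.24 ± 0.79 (adjusted p = 0.998) and -2.08 without mated 4 (adjusted p = 0.616). EPSTI1, another interferon-induced gene, repeated it, with 8.21 to 13.14 in mated hens, against 11.69 to 12.37 in SF-infused hens. The IFN receptor genes IFNAR1 and IFNAR2 lay at 0.24 and 0.59 and were not called.

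**Figure D3:**
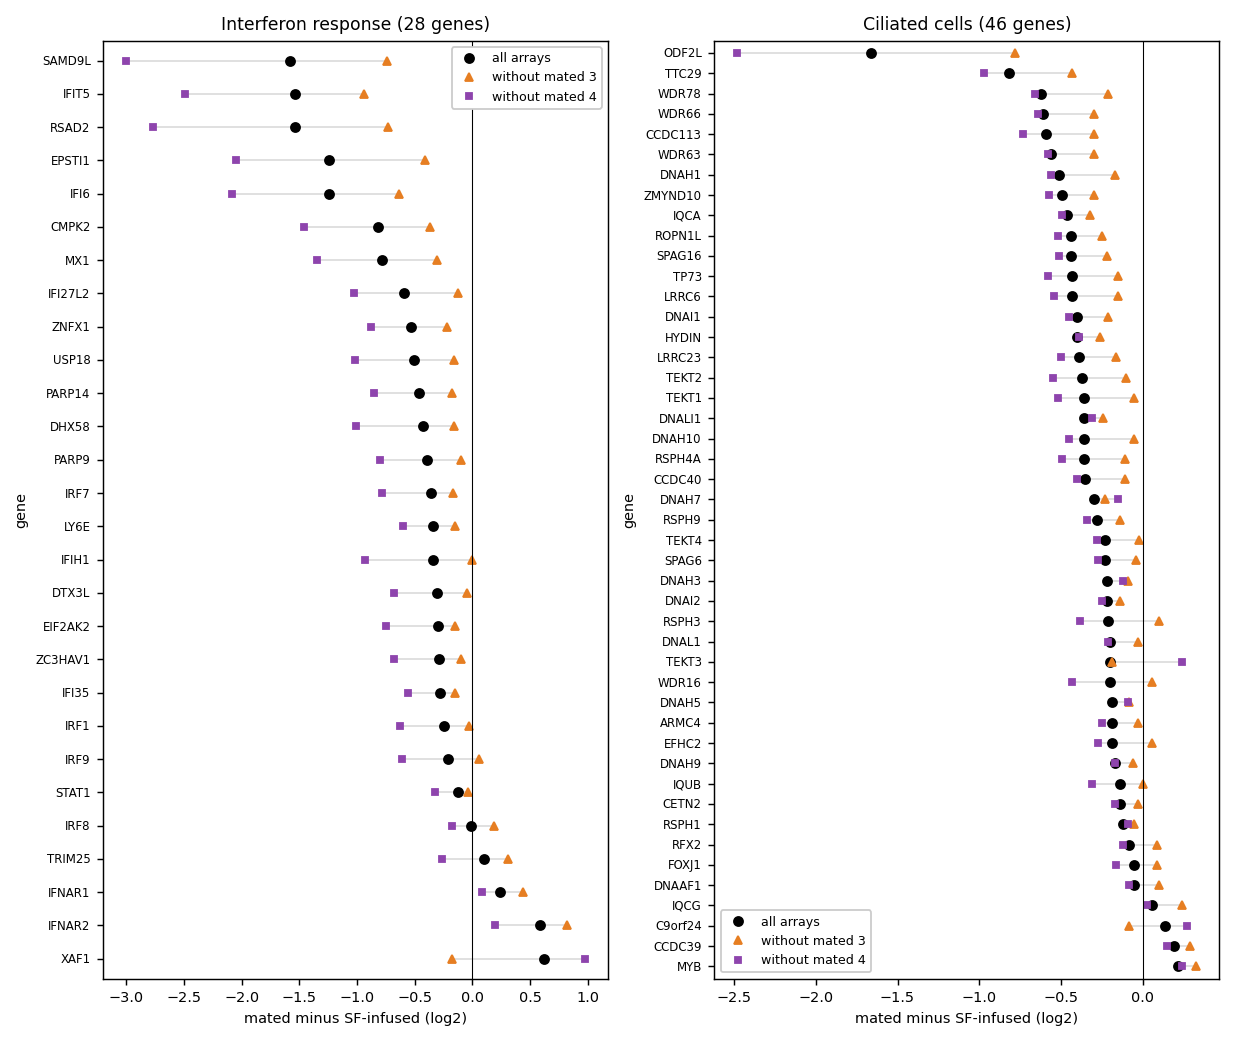
Difference between mated and SF-infused hens (log2) of each gene of the interferon response and ciliated cell lists with all arrays (circles), without mated 3 (triangles) and without mated 4 (squares). Without mated 4 the median interferon gene lay at -0.79 in place of -0.35, and without mated 3 the median ciliated gene lay at -0.11 in place of -0.29.

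Lymphocyte and macrophage markers were mostly above 0, for T lymphocytes and macrophages mainly through mated 4. The B lymphocyte level was also highest on mated 4. Of 27 T lymphocyte genes 23 lay above 0 (median 0.25, 1 called higher), but without mated 4 it was 11 of 27 with a median of -0.05. The level of the list was -0.30, 0.27, -0.18 and 1.16 on mated 1 to 4, against -0.11 to 0.19 in SF-infused hens. The defining T cell genes CD3E and CD8A averaged 12.05 and 11.69 in mated hens, against 12.04 and 11.58 in SF-infused hens. TCF7, a transcription factor of T cells and of Wnt signalling, was the member called, at 9.39 to 10.62 in mated hens, against 7.99 to 9.81 in SF-infused hens (1.23 ± 0.50, adjusted p = 0.993), and it lost the threshold without SF 2, SF 3, SF 4, mated 3 or mated 4.

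Of 25 macrophage and heterophil genes 20 lay above 0 (median 0.18, none called), and without mated 4 it was 14 with a median of 0.04. The 16 B lymphocyte genes had 12 above 0 (median 0.14) and 2 called higher, PAX5 and CD72. Without mated 4 it was 9 of 16 with a median of 0.11, the same 2 were called higher and 1 other lower. The level of the B lymphocyte list was 0.02, -0.03, -0.11 and 0.65 on mated 1 to 4, against -0.42 to 0.18 in SF-infused hens. CD79B, part of the B cell receptor, averaged 9.88 ± 0.83 in mated hens and 9.58 ± 0.91 in SF-infused hens (SD). Cytokines and chemokines (42 genes), their receptors (44) and antigen presentation (17) had no called member and medians of 0.05, 0.03 and -0.01. Without mated 4 their medians were -0.12, -0.24 and -0.33, with 1, 4 and 5 members called lower, where 3.2% of all characterised genes were. In the Toll-like receptor and NF-kB list 1 of 37 was called, CD14, the co-receptor for bacterial lipopolysaccharide. It gave 7.98 to 8.37 in mated hens, against 7.71 to 7.88 in SF-infused hens (0.32 ± 0.13, adjusted p = 0.998), and a second feature of the gene differed by 0.12 and was not called. Without mated 4 0 of the 37 members were called higher and 9 lower, where 2.28% and 3.2% of all characterised genes were.

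**Figure D4:**
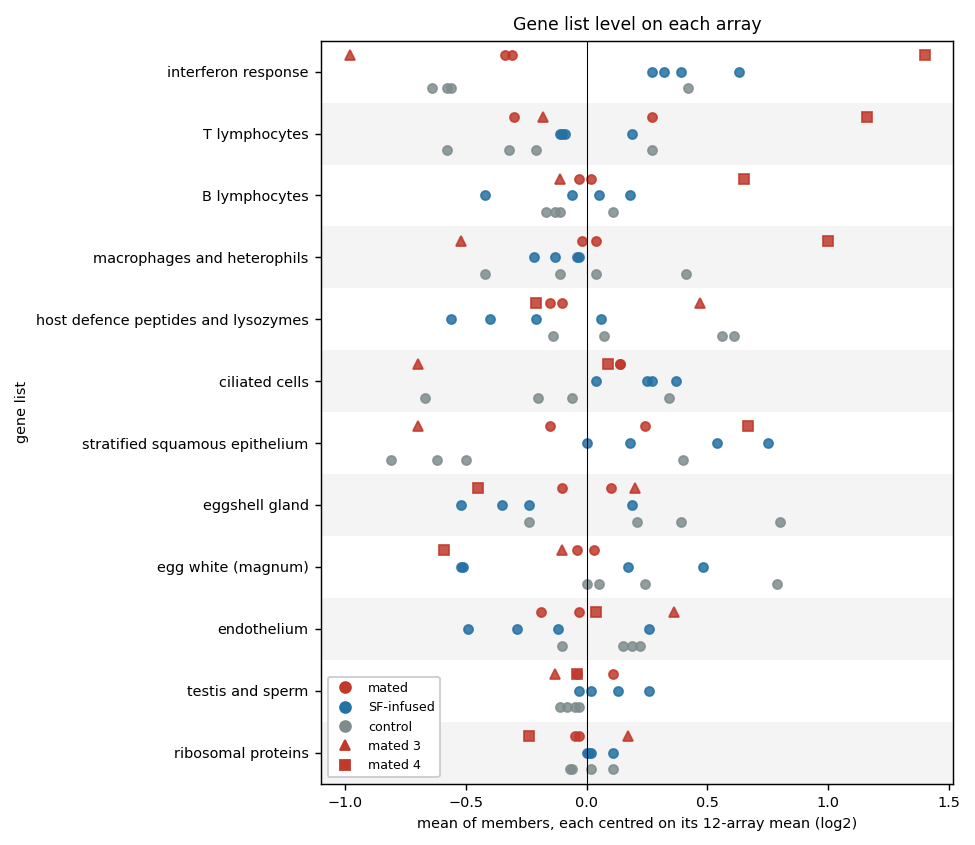
Mean level of 12 gene lists on each array, each member centred on its 12-array mean (log2), with mated above SF-infused above control; mated 3 is drawn as a triangle and mated 4 as a square. Mated 4 has the highest interferon and T lymphocyte levels (1.40 and 1.16), and mated 3 the lowest ciliated level (-0.70).

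Host defence peptides lay slightly higher in mated than in SF-infused hens, but the arrays overlapped widely. The level of the list was -0.10, -0.15, 0.47 and -0.21 on mated 1 to 4, against 0.06, -0.56, -0.40 and -0.21 on SF 1 to 4. The control mean of the list, 0.28, lay above the mated mean of 0.00. Of 23 genes 18 lay above 0 (median 0.18), and 2 were called, both higher and both dim, where 1.55% of all characterised genes were called higher. Without mated 3 it was 15 of 23 with a median of 0.07. AvBD6 (GAL6 on the array), an avian beta-defensin, gave 5.59, 5.40, 5.58 and 5.50 in mated hens, against 5.06, 4.86, 5.18 and 4.76 in SF-infused hens. LEAP2, an antimicrobial peptide first found in liver, gave 6.38, 6.53, 6.31 and 6.25 in mated hens, against 6.18, 5.87, 5.44 and 5.98 in SF-infused hens. The differences were 0.55 ± 0.12 (adjusted p = 0.712) and 0.50 ± 0.15 (adjusted p = 0.855), and both held whichever array was left out. For these 2 genes controls averaged 5.40 and 6.45, close to the mated hens. The other defensins that were measured were not called, AvBD10 and AvBD12 among them, which differed by 1.14 ± 1.84 and 1.44 ± 1.54.

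In the complement and coagulation list 2 of 41 genes were called higher and 3 lower, where 1.55% and 1.53% of all characterised genes were. Only the 3 lower ones are described, picked by the smallest p among members above the random-sequence level. CFI, the protease that cuts C3b, gave 8.65, 8.93, 8.62 and 8.55 in mated hens, against 9.01, 8.92, 9.24 and 9.23 in SF-infused hens. The groups overlapped only at mated 2, and the difference was -0.41 ± 0.13 (adjusted p = 0.867). TFPI, the inhibitor of the tissue factor pathway, gave 7.21 to 7.43 in mated hens, below the 7.55 to 8.12 of the SF-infused hens and the 7.54 to 8.03 of the controls (-0.43 ± 0.14, adjusted p = 0.868). F2, prothrombin, differed by -0.67 ± 0.24 (adjusted p = 0.941) but lost the threshold without SF 2 or mated 2. TFPI, F2 and NELL1 were also the 3 genes called lower among 24 that the study itself named in hens (median -0.33, 16 below 0), a list chosen on these samples and not independent evidence of its direction.

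Genes of cilia lay lower in mated than in SF-infused hens, by little and mostly through 1 array. Of 46 genes 42 lay below 0, with a median of -0.29 and 2 called lower. The level of the list was 0.14, 0.14, -0.70 and 0.09 on mated 1 to 4, against 0.25, 0.04, 0.37 and 0.27 in SF-infused hens. Control hens lay at 0.34, -0.20, -0.67 and -0.06. The control mean of -0.15 was nearer the mated mean (-0.08) than the SF mean (0.23). Without mated 3 it was 37 of 46 below 0, the median was -0.11 and 0 were called. IQCA, a protein of the axonemal dynein regulatory complex, was called, at 11.81 to 12.46 in mated hens, against 12.58 to 12.85 in SF-infused hens (-0.46 ± 0.20, adjusted p = 0.998). HYDIN, a central pair protein of motile cilia, lay at 11.94 to 12.67 in mated hens, against 12.38 to 12.94 in SF-infused hens (-0.40 ± 0.18) and was not called, and FOXJ1 differed by -0.05 ± 0.16.

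Genes of the stratified squamous list had 29 of 35 below 0 (median -0.25) and 1 called lower. The mean level of the list was 0.01 ± 0.59 in mated, 0.37 ± 0.34 in SF-infused and -0.38 ± 0.54 in control hens (SD), so that mated hens were not below controls. GRHL3, a transcription factor of barrier epithelium, gave 10.06, 10.12, 9.48 and 9.78 in mated hens, against 10.05, 10.35, 10.59 and 10.44 in SF-infused hens (-0.50 ± 0.20, adjusted p = 0.992). Its control mean was 9.81. Without mated 3 no member was called and the median was -0.06. The basal keratin KRT5 varied widely, 11.82 ± 1.33 in mated hens and 12.62 ± 0.70 in SF-infused hens (SD), with a control mean of 10.73. Endothelial genes had 25 of 29 above 0 (median 0.17), and 1 was called, FLI1, at 8.53 to 9.42 in mated hens, against 6.82 to 9.13 in SF-infused hens (1.06 ± 0.44, adjusted p = 0.998). Without mated 3 it was 19 of 29 with none called, and without SF 4 18 of 29 with a median of 0.04. Leaving out mated 4 gave 16 of 29 with a median of 0.18. The defining endothelial genes PECAM1, CDH5 and KDR differed by 0.06, 0.02 and 0.15, and none was called. Smooth muscle genes were divided evenly, 10 above and 10 below 0, with none called.

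Among egg white genes, expressed mainly in the magnum higher in the oviduct, 3 of 21 were called, all lower in mated hens. Of all characterised genes 1.53% were called lower. OVAL (ovalbumin, SERPINB14 on the array) gave 7.10, 5.70, 4.29 and 4.38 in mated hens, against 10.11, 7.83, 6.43 and 9.92 in SF-infused hens. Mated 1 lay above SF 3, the difference was -3.20 ± 1.26 (9.21-fold lower, adjusted p = 0.973), and control 2 was higher than any of these at 11.37. OVST (ovostatin, A2M on the array), a protease inhibitor, gave 7.72, 8.45, 7.28 and 8.14 in mated hens, against 8.45, 9.18, 9.29 and 8.84 in SF-infused hens (-1.04 ± 0.34, adjusted p = 0.868). RBP, the riboflavin-binding protein, gave 7.46 to 10.08 in mated hens, against 9.38 to 11.86 in SF-infused hens (-1.63 ± 0.62, adjusted p = 0.964). OVST alone held whichever array was left out. AVD, avidin, lay the other way and was not called, at 11.67 ± 1.6 in mated hens and 10.02 ± 1.16 in SF-infused hens (SD, adjusted p = 0.998), and the list median was -0.06.

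Eggshell gland genes varied widely between hens of one group. MEPE (ovocleidin, LOC395256 on the array), a matrix protein of the shell, gave 13.68, 10.18, 14.48 and 8.27 in mated hens, against 14.31, 6.01, 6.20 and 6.32 in SF-infused hens. One SF-infused hen was as high as the highest mated hens, and the difference of 3.44 ± 2.41 was not called (adjusted p = 0.998). The list had 30 of 43 above 0 (median 0.09), with 1 called each way. KIAA1199, which takes part in hyaluronan breakdown in human cells, was the lower one, at 4.87 to 8.09 in mated hens, against 6.90 to 8.99 in SF-infused hens (-1.57 ± 0.70, adjusted p = 0.998). PENK, proenkephalin, was the higher one, at 7.24 to 7.62 in mated hens, against 6.92 to 7.34 in SF-infused hens (0.34 ± 0.13, adjusted p = 0.964).

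Genes with a bearing on the storage environment gave few calls. HMOX1, which breaks down haem, gave 11.69, 12.37, 13.21 and 11.76 in mated hens, against 12.11, 11.13, 10.63 and 10.66 in SF-infused hens and 12.62 to 12.93 in controls. SF 1 lay within the mated range and the other SF arrays below it, with a difference of 1.12 ± 0.38 (adjusted p = 0.868) that held whichever array was left out. Among 38 antioxidant enzymes 2 were called higher, where 1.55% of all characterised genes were, and the median was -0.03. AQP8, a water channel, was the 1 called of 6 aquaporins, at 6.54, 6.61, 6.73 and 6.33 in mated hens, against 6.07, 5.96, 5.71 and 6.13 in SF-infused hens (0.59 ± 0.16, adjusted p = 0.811). Its groups did not overlap.

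Genes for pH regulation and ion transport (56 measured) and oxidative phosphorylation (46) had no called member, and their medians were 0.08 and 0.06. MMP1, a collagenase, was the 1 called of 44 metallopeptidases and inhibitors, at 10.30, 8.38, 7.89 and 7.53 in mated hens, against 5.93, 4.34, 5.74 and 9.26 in SF-infused hens. SF 4 lay among the mated hens, and the difference of 2.21 ± 0.92 (adjusted p = 0.998) lost the threshold without any 1 of SF 1, SF 2, SF 3, mated 1 or mated 2. Control hens lay at 8.87 to 10.16 for MMP1, above mated 2, mated 3 and mated 4. OPN3, a non-visual opsin, was lower in every mated hen, at 4.15 to 4.70, against 4.79 to 5.51 in SF-infused hens (-0.79 ± 0.18, adjusted p = 0.733), with controls at 4.84 to 5.24. FOS, an immediate early gene, gave 9.29 to 10.92 in mated hens, against 10.03 to 11.65 in SF-infused hens (-1.0 ± 0.43, adjusted p = 0.998).

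The testis and sperm list had no member called higher in mated hens. Of its 43 genes 3 were called lower, where 1.53% of all characterised genes were. In this list 28 genes lay below 0, and the median was -0.13 (-0.04 without mated 3). Without mated 3, and likewise without mated 4, 1 member was called higher and 3 lower. ACTL9, described above and no member of the list, was called higher. The level of the list was -0.13 to 0.11 in mated hens, against -0.03 to 0.26 in SF-infused hens. DDX4, a germ cell helicase, lay at 3.10, 3.20, 3.38 and 4.20 in mated hens, against 3.31, 3.09, 3.34 and 3.29 in SF-infused hens, so that only mated 4 exceeded the random-sequence level. PRM1, TSSK2 and AKAP4 are not analysed here. TSGA10, a sperm tail protein that other tissues also make, gave 8.42 to 9.98 in mated hens, against 9.93 to 10.38 in SF-infused hens (-0.79 ± 0.33, adjusted p = 0.998). SYCP2, of the meiotic chromosome axis, was dim, at 4.26 to 4.80 in mated hens, against 4.65 to 5.61 in SF-infused hens (-0.55 ± 0.22, adjusted p = 0.985). A second feature of SYCP2 differed by -0.51 ± 0.12 and also passed (unadjusted p = 0.0013, limma). Its mean over the 12 arrays, 3.96, was near the random-sequence level.

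Ribosomal protein genes lay narrowly lower in mated hens, with 49 of 55 below 0, a median of -0.07 and none called. Their level was -0.03, -0.05, 0.17 and -0.24 on mated 1 to 4, against 0.00 to 0.11 in SF-infused hens, so that mated 3 was the highest and mated 4 the lowest. Without mated 3, 9 of the 55 were called lower, where 1.47% of all characterised genes were. Oxidative phosphorylation genes, of which 35 of 46 lay above 0, turned without mated 3, when 7 of 46 lay above 0, and without SF 2, when 14 did. The TGF-beta and peripheral nerve lists had no called member. Columnar epithelium, cell cycle and cell junctions had 1 member each called lower, of 25, 56 and 40, and erythrocytes and steroid signalling 1 each called higher, of 20 and 43. Over the 34 lists the median, at 2 decimals, did not turn its sign in 14 whichever array was left out. The interferon, ciliated, squamous, endothelial, host defence and testis lists were among them. Cell junctions, with a median of 0.02 but -0.0 without SF 1, counts among the 14 only through rounding. Leaving out single arrays divided the called list members described. NUDT1, HMOX1, AvBD6, LEAP2, PAX5, CD72, CFI, TFPI, OVST, AQP8, OPN3 and NELL1 stayed past the threshold whichever array was left out. TCF7, CD14, F2, TPH2, IQCA, GRHL3, FLI1, OVAL, RBP, KIAA1199, PENK, MMP1, FOS, TSGA10 and SYCP2 each lost it at least once. Of those that stayed, AvBD6, LEAP2, PAX5, AQP8, OPN3 and NELL1 were among the 9344 dimmest features, of which 11.4% passed. Of those that lost it, F2, TPH2, OVAL, KIAA1199, PENK and SYCP2 were also among these dimmest features.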

How the data were processed

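The authors hybridised Cy3-labelled cDNA of 12 hens, 1 per array, to a custom NimbleGen chicken array. They deposited linear intensity values per feature, after RMA in the DEVA software, and the probe number of each feature as another column. RMA and limma are the tools listed in the submitters' processing notes, without versions. The genome build of the array is not given in the sources used here. A series table held the same values.

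Intensities were converted to log2 with no pseudocount. The feature of random sequences was left out. All 12 arrays entered 1 model in limma 3.58.1 (R 4.3.3) with 1 mean per group, the contrast mated minus SF, empirical Bayes moderation, two-sided tests and Benjamini-Hochberg adjustment over 37374 features. The step was tested on simulated data. Symbols came from the files, updated through a RefSeq table of assembly GRCg7b, by accession for 4032 features and by a unique synonym for 572.

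Named genes had non-overlapping mated and SF arrays and an unadjusted p under 0.05: the 12 largest in each direction, the 6 smallest p, and up to 3 members of each list with the smallest p whether or not they overlapped. Genes that the rule picked but that are not reported here were not replaced. ACOT9, AVD, MEPE, HYDIN, FOXJ1, CD3E, CD8A, HTR7 and others outside this rule were named with their values known. Members and lists were chosen with earlier results of these data known. Alternatives were other filters, scalings, array weights, variance moderation, a replicate block, a pseudocount, the series table and each array left out. The replicate numbers were not used as pairs in the main model, and whether they match mated with SF-infused hens by male is not stated.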

Additional observations from a re-analysis of the deposited data

Results flagged for a closer look

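Among 118 groups of 4 hens examined (lists and named genes), 8 held 1 hen far from the other 3, and chance alone gives about 1 in 20 groups. Mated 3 stood alone in 4 lists, high for host defence peptides (0.47) and low for ciliated cells (-0.70), metallopeptidases (-0.31) and neuropeptides (-0.43). SF 2 was alone for T lymphocytes (0.19), and SF 4 for steroid and prostaglandin signalling (-0.12). Single genes with 1 distant SF-infused hen were SIK1 (9.79 on SF 4) and PCLO (8.67 on SF 2).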

How the results depend on the processing

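The count of 0 features past the adjusted threshold held under all settings but 3, each of which gave 1 feature with no characterised gene name. They were only the mated and SF arrays (smallest adjusted p 0.0382, limma), without control 3 (0.00142) and without mated 4 (0.049). The same feature passed without control 3 as with only the mated and SF arrays. Leaving out 1 array thus gave 0 to 1. The 1756 features past the unadjusted threshold became 2817 with array weights (1236 higher, 1581 lower), 728 among features at or above the 25th percentile of brightness (307 and 421) and 370 at or above the median (160 and 210). Features with non-overlapping groups numbered 509 and 295 under these filters. Leaving out 1 array gave 1256 to 2537 features, 709 to 1578 of them lower in mated hens, with the most without mated 4, and 1135 to 2521 without overlap, where fewer arrays are compared. Without mated 4, 1306 of the 1756 features passed again (74.4%). The replicate block gave 1827, of which 1435 are shared, and 1256 with only the mated and SF arrays. Same-numbered mated and SF arrays had correlations of their deviations of 0.12, 0.05, -0.33 and -0.28. The aquaporin median was 0.43 under both brightness filters, which left 1 gene, and the neuropeptide median -0.14 at the 25th percentile. The steroid list median of 0.07 ranged from -0.02 to 0.08 on leaving out 1 array. The difference of PGM5 (-0.17) ranged from -0.27 to 0.02 on leaving out 1 array, with 0.02 without mated 3. Brightness limits these results, since most features that passed were dim.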

Other observations

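ACOT9, an acyl-CoA thioesterase of mitochondria, was picked out after its values were seen. It gave 10.12, 11.29, 10.56 and 11.27 in mated hens, against 10.38, 9.55, 3.14 and 2.74 in SF-infused hens and 9.68 to 10.66 in control hens. SF 3 and SF 4 lay below the random-sequence level, and the other 10 hens lay between 9.55 and 11.29. It was called (adjusted p = 0.925, limma), but no size of difference is given, since 2 of the 4 SF arrays were not above background. GTSF1, a germ line gene of the piRNA pathway, was also uneven among SF-infused hens, with 10.28, 10.18, 9.25 and 9.71 in mated hens, against 6.64, 7.16, 8.50 and 10.63 in SF-infused hens (1.62 ± 0.70, adjusted p = 0.998).

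P2RY8, a receptor of lymphocytes, gave 6.68, 7.80, 6.27 and 9.07 in mated hens, against 6.19, 6.0, 6.61 and 4.87 in SF-infused hens (1.54 ± 0.60, adjusted p = 0.968). Mated 4 was again the highest.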
